A study of Mus musculus with 21 samples.

Results

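Described here is the difference between the effects of Cre in 2 lines of mouse embryonic fibroblasts (MEFs), a line with floxed *Rtel1* alleles (*Rtel1* F/F) and a line with floxed *Terf1* alleles (*Terf1* F/F, named Trf1f/f in the labels). For each gene the change from +GFP to +Cre in *Terf1* F/F cells was subtracted from the same change in *Rtel1* F/F cells, so that a positive difference means a Cre effect that was higher in the *Rtel1* F/F line. The 12 libraries of these 4 groups, 3 in each, were taken by their labels from the 21 libraries of the series. Cells had been infected with adenovirus that carries GFP alone (+GFP) or Cre (+Cre), and RNA was collected 96 h later. The remaining 9 libraries were *Rtel1* F/F cells treated with TMPyP4, a ligand of G-quadruplex DNA, and cells of the same line with a mutant protein, RTEL1 C1252A/C1255A, infected with +GFP or +Cre. Total counts of the 12 libraries were between 36786352 and 47300825, with a median of 42821790. They were between 43732660 and 47300825 in *Rtel1* F/F +GFP, 37651982 and 43896564 in *Rtel1* F/F +Cre, 39208515 and 42532282 in *Terf1* F/F +GFP and 36786352 and 45262564 in *Terf1* F/F +Cre cells.

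Each genotype was represented by 1 line, so the deleted gene and the line that carries it cannot be told apart, and no line without floxed alleles received Cre. Libraries are labelled as biological replicates, and the paper states for all its data that more than 1 independent experiment was done. How the cultures of these libraries were kept apart is not described further. The p-values therefore measure the spread between these libraries, which may be technical. Because RNA was pooled from whole cultures, a change in the share of cells of a kind and a change in RNA per cell cannot be told apart.

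RTEL1 is a DNA helicase that unwinds G-quadruplexes and telomeric loops and keeps replication forks moving. TRF1, the product of *Terf1*, is a subunit of shelterin, the complex that covers telomeric repeats, and promotes their replication. In fibroblasts, interferons act through receptors and transcription factors such as the IRF proteins to induce a shared set of antiviral and antigen-presentation genes, and DNA damage acts through p53 to induce cell cycle inhibitors such as *Cdkn1a*.

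The deleted genes were examined first. *Rtel1* (chromosome 2 of GRCm38, the assembly behind mm10, 181319711 to 181356616) was measured at 66.2, 59.1 and 60.2 CPM (counts scaled to the normalized library size) in *Rtel1* F/F +GFP and 29.9, 31.9 and 26.8 CPM in *Rtel1* F/F +Cre libraries. It had 49.1, 47.9 and 50 CPM in *Terf1* F/F +GFP and 44.2, 43.7 and 49.7 CPM in *Terf1* F/F +Cre libraries. Every *Rtel1* F/F +Cre library was below every *Rtel1* F/F +GFP library, and the effects in both lines differed by -0.97 on the log2 scale (SE 0.110, edgeR quasi-likelihood with Benjamini-Hochberg adjusted p = 2.5e-06). *Terf1* (chromosome 1, 15805546 to 15844052) had 27.9, 29.6 and 30.3 CPM in *Terf1* F/F +GFP libraries and 5, 2 and 1 counts in the +Cre libraries. In *Rtel1* F/F cells *Terf1* had 28.7, 28.9 and 27.3 CPM (+GFP) and 32.3, 36.3 and 33.5 CPM (+Cre). Each targeted gene was thus low in the +Cre libraries of its own line, and *Rtel1* transcripts were still counted after Cre, whereas *Terf1* transcripts were almost absent.

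Libraries of the *Rtel1* F/F +GFP group stood apart. In a principal component analysis of all 21 libraries the first component (71.9% of the variance) separated *Terf1* F/F cells, at 117.4 to 127.8, from all others, at -61.5 to -27.5. On the second component (13.1%) the *Rtel1* F/F +GFP libraries were at -56.3, -74.9 and -71.8, and the other libraries of *Rtel1* F/F origin were between -29.7 and 46.5, RTEL1 C1252A/C1255A +GFP cells included. Since the Cre effect in this line is measured against these 3 libraries, results of lists and of most named genes are also given with the RTEL1 C1252A/C1255A +GFP libraries in their place, called the mutant +GFP control. These cells differ from *Rtel1* F/F +GFP cells by the expressed mutant too, and had 338, 328 and 331 CPM of *Rtel1* transcripts. The part of the control libraries in the results below was not tested beyond this replacement. Values with this control are given whether or not they reached an adjusted p of at most 0.01 (edgeR, Benjamini-Hochberg).

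Among 13719 genes tested, the Cre effect differed between the lines for 4147 genes (30.2%) in the quasi-likelihood test of edgeR (Benjamini-Hochberg adjusted p of at most 0.01). The difference was positive for 2161 genes (15.8%) and negative for 1986 (14.5%). Within the lines, Cre raised 3015 genes (22%) and lowered 2887 (21%) in *Rtel1* F/F cells, and raised 364 (2.65%) and lowered 105 (0.765%) in *Terf1* F/F cells. With an absolute log2 fold change of at least 1 required as well, 1569 genes differed, of which 27.0% were higher in the *Rtel1* F/F line. With the mutant +GFP control 600 genes (4.37%) differed, 225 (1.64%) higher and 375 (2.73%) lower, and Cre effects in *Rtel1* F/F cells were called for 1064 genes (7.76%). In RTEL1 C1252A/C1255A cells, compared with their own +GFP libraries, Cre effects were called for 150 genes (1.09%), 72 higher and 78 lower. Both Cre effects share no library, and across the 13719 genes, which are not independent replicates, they had a Pearson's r of -0.013.

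Genes were grouped by the tests they passed. A response in *Rtel1* F/F cells only, with the difference between lines also called, was found for 3696 genes (26.9%), 2025 of them higher and 1671 lower after Cre. For 2739 of these the 95% interval of the effect in *Terf1* F/F cells lay within 0.5 of 0 on the log2 scale. A response in *Terf1* F/F cells only was found for 129 genes (0.940%), 112 higher and 17 lower, and 72 of them had such a narrow interval in *Rtel1* F/F cells. Without *Terf1* F/F +GFP replicate 2, +Cre replicate 1 or +Cre replicate 2 the number fell to 85, 83 and 85. Opposite responses were called for 121 genes (0.882%), 112 of which fell in *Rtel1* F/F and rose in *Terf1* F/F cells. At least 1 CPM in both lines was found for 99 of the 121 and 90 of the 112, beside 11398 of the 13719 genes tested. The +GFP groups of both lines differed for 109 of the 121, beside 7529 of the 13719. Responses in the same direction were called for 148 genes (1.08%), 89 higher and 59 lower. A further 1937 genes were called in *Rtel1* F/F cells and not in *Terf1* F/F cells, with no call for the difference, and are counted in no group. Against the mutant +GFP control, 243 genes of the *Rtel1* F/F-only group, 44 of the *Terf1* F/F-only group, 12 with opposite responses and 44 with the same direction kept their group.

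**Figure D1:**
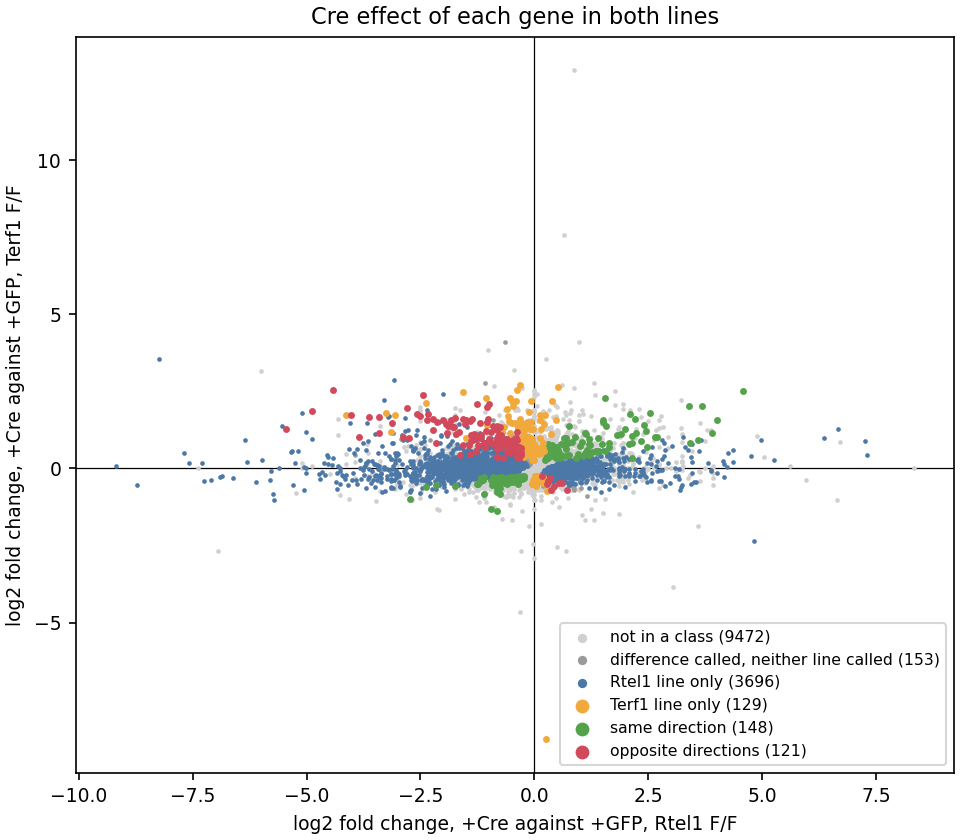
Log2 fold change of +Cre against +GFP in *Rtel1* F/F (horizontal axis) and *Terf1* F/F cells (vertical axis) for 13719 genes, colored by group, with the number of genes in each group in the legend. Most colored points lie along the horizontal axis (3696 genes called in *Rtel1* F/F cells only), and 112 of the 121 genes called in opposite directions lie at the upper left. The most extreme values belong to genes with a group near 0 counts, whose fitted fold changes depend on the prior count.

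Genes of the interferon response were the main program that moved oppositely. Of 106 tested genes in 4 lists (type I interferon-stimulated genes, interferon-gamma-inducible GTPases and guanylate-binding proteins, nucleic acid sensors and interferon regulators, and MHC class I presentation), 60 fell and 5 rose with Cre in *Rtel1* F/F cells, and 85 rose and 0 fell in *Terf1* F/F cells. The difference between lines was negative for 89 and positive for 1. Of the 106 genes, 83 had at least 1 CPM in both lines. Over all genes tested 21% fell and 22% rose in *Rtel1* F/F cells, 2.65% rose and 0.765% fell in *Terf1* F/F cells, and 14.5% had a negative and 15.8% a positive difference. Their median log2 fold changes were -0.77 in *Rtel1* F/F and 1.14 in *Terf1* F/F cells, with a median difference of -1.93, beside -0.034, 0.0012 and -0.047 over all genes tested. With genes whose libraries of a group were all at 0 set to their bound (3 counts in each library), the median was -0.71 in *Rtel1* F/F cells and the median difference was -1.86. Opposite responses were called for 50 of the 106 genes and responses in *Terf1* F/F cells only for 28 (0.882% and 0.940% of all genes tested). The 50 genes were 44.6% of the 112 genes that fell in *Rtel1* F/F and rose in *Terf1* F/F cells, and 47.2% of the lists. When the mutant +GFP control was used, the direction in *Rtel1* F/F cells turned. In their +Cre libraries 20 members were then higher and 0 lower than in the mutant +GFP libraries (median 0.25). The difference was negative for 25 members and positive for 2 (median -0.66). In RTEL1 C1252A/C1255A cells, compared with their own +GFP libraries, 2 members rose and 0 fell with Cre (median 0.17).

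*Irf7*, the regulator that amplifies interferon production, had 4.34, 5.88 and 6.29 CPM in *Rtel1* F/F +GFP and 1.17, 0.993 and 0.710 CPM in *Rtel1* F/F +Cre libraries. In *Terf1* F/F cells *Irf7* went from 133, 128 and 118 CPM with GFP to 460, 447 and 327 CPM with Cre. Its difference was -4.21 (SE 0.313), and -0.99 with the mutant +GFP control (edgeR quasi-likelihood with Benjamini-Hochberg adjusted p = 0.147). *Isg15*, a ubiquitin-like protein conjugated to other proteins in interferon-treated cells, had 26.6, 21.4 and 26.8 CPM in *Rtel1* F/F +GFP, 18.0, 14.3 and 19.2 CPM in *Rtel1* F/F +Cre, 388, 432 and 445 CPM in *Terf1* F/F +GFP and 819, 785 and 704 CPM in *Terf1* F/F +Cre libraries. For *Isg15* the difference was -1.41 (SE 0.221) and turned to 0.35 with the mutant +GFP control, whose libraries had 8.03, 5.05 and 8.88 CPM. *Irf7* and *Isg15* were chosen after their values were seen.

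Of the 46 tested type I interferon-stimulated genes, 29 fell and 3 rose in *Rtel1* F/F cells, 44 rose and 0 fell in *Terf1* F/F cells, and 41 differed (89.1%, beside 30.2% of all genes tested), all with a lower effect in *Rtel1* F/F cells. At least 1 CPM in both lines was found for 34 of the 46. Over all genes 21% fell in *Rtel1* F/F and 2.65% rose in *Terf1* F/F cells. Their median level was far higher in the *Terf1* F/F line before Cre, by 4.03 on the log2 scale between both +GFP groups, beside 0.024 over all genes tested. *Ifi44*, an antiviral protein gene of this list, had 3.00, 2.73 and 3.33 CPM in *Rtel1* F/F +GFP and 0.326, 0.273 and 0.246 CPM in *Rtel1* F/F +Cre libraries, and 320, 358 and 412 CPM rose to 845, 976 and 577 CPM in *Terf1* F/F cells. Its libraries with and without Cre did not overlap in either line, and the effects differed by -4.54 (SE 0.371, edgeR quasi-likelihood with Benjamini-Hochberg adjusted p = 9.7e-08). With the mutant +GFP control they differed by -0.91, which was not called. *Mx1*, a dynamin-like GTPase that blocks influenza viruses, was near the limit of counting in *Rtel1* F/F cells, with 14, 16 and 15 counts (+GFP) and 1, 2 and 3 counts (+Cre). In *Terf1* F/F cells *Mx1* had 21.9, 25.4 and 27.1 CPM (+GFP) and 92.1, 101 and 60.3 CPM (+Cre) (fitted difference -4.35, and -1.69 with the mutant +GFP control). *Trim14*, an adaptor in antiviral signaling, fell from 22, 20 and 20 counts to 4, 2 and 4 counts in *Rtel1* F/F cells, and rose from 4.45, 4.21 and 4.99 CPM to 16.9, 17.8 and 12.3 CPM in *Terf1* F/F cells (fitted difference -4.12, and -1.96 with the mutant +GFP control). *Oas1a*, an oligoadenylate synthetase that activates RNase L and shares sequence with *Oas1g*, had 3, 7 and 8 counts with GFP and none with Cre in *Rtel1* F/F cells, so that it was at least 1.64-fold lower with 3 counts per library as the floor. With the mutant +GFP control 12 members of the list were higher and 0 lower in *Rtel1* F/F +Cre libraries (median 0.34), and 13 had a negative and 2 a positive difference.

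Interferon-gamma-inducible GTPases and guanylate-binding proteins, which act on the membranes around intracellular pathogens, were at very low counts in *Rtel1* F/F cells for many members, and 9 of 16 had at least 1 CPM in both lines. Of 16 tested members (19 listed), 11 fell and 0 rose in *Rtel1* F/F cells, 15 rose and 0 fell in *Terf1* F/F cells, and 15 differed (93.8%). Over all genes tested these shares were 21% and 22%, 2.65% and 0.765%, and 30.2%. Medians were -1.87 and 1.58, with a median difference of -3.36 (-1.78 and -3.16 with genes at 0 set to their bound). *Tgtp2* (chromosome 11, 49057196 to 49064212), a T-cell-specific GTPase nearly identical to *Tgtp1* so that reads may have been divided between them, had 28, 53 and 74 counts in *Rtel1* F/F +GFP and 4, 0 and 0 counts in *Rtel1* F/F +Cre libraries. In *Terf1* F/F libraries it was at 40.3, 46.7 and 47.3 CPM (+GFP) and 177, 202 and 105 CPM (+Cre). The fitted difference of -6.74 for *Tgtp2* rests on few counts. It was -10.36 without *Rtel1* F/F +Cre replicate 1, the library with the 4 counts, and -3.60 with the mutant +GFP control. *Gbp6* had 0.890, 2.10 and 2.02 CPM in *Rtel1* F/F +GFP, 0.117, 0.149 and 0.136 CPM in *Rtel1* F/F +Cre, 29.3, 31.1 and 34.5 CPM in *Terf1* F/F +GFP and 113, 120 and 68.0 CPM in *Terf1* F/F +Cre libraries. The difference for *Gbp6*, -5.29 (SE 0.511), was -0.92 with the mutant +GFP control and was then not called. For both genes the +Cre libraries were below the +GFP libraries in one line and above them in the other, which the naming rule required of *Tgtp2*. The smallest of the 3 *Terf1* F/F +Cre values of each gene came from replicate 3. *Iigp1* and *Gm12250* were called in *Terf1* F/F cells only. *Iigp1* had 80.3, 94.0 and 101 CPM (+GFP) and 347, 410 and 203 CPM (+Cre) there. In *Rtel1* F/F cells it had 11, 13 and 14 counts (+GFP) and 0, 3 and 0 counts (+Cre), a fall that missed the threshold (edgeR quasi-likelihood with Benjamini-Hochberg adjusted p = 0.0146). *Gm12250* had 3.25, 3.26 and 3.95 CPM (+GFP) and 23, 23.5 and 13.9 CPM (+Cre) in *Terf1* F/F cells, and 0.178, 0.226 and 0.280 CPM against 0.163, 0.199 and 0.164 CPM in *Rtel1* F/F cells. The differences of *Iigp1* and *Gm12250* with the mutant +GFP control, -3.91 and -1.65, were not called. When the mutant +GFP control was used, 3 members of the list rose and 0 fell in *Rtel1* F/F cells, and 3 had a negative difference.

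Promoters of these genes are shown because the genes moved together and a motif of interferon-regulated promoters was searched in them. The core of the interferon-stimulated response element, GAAA, any 2 bases and GAAA on either strand (TTTC, any 2 bases and TTTC when read on the other), was present in 3.70% of the promoters of 10837 tested genes (250 bases before to 50 after the start, RefSeq, GRCm38.p6). It was found in 11 of 12 promoters (91.7%) of the inducible GTPase and guanylate-binding protein list, in 18 of 34 (52.9%) of the type I list, and in 33 of 85 (38.8%) of the genes that fell in *Rtel1* F/F and rose in *Terf1* F/F cells. The share was 28.9% for genes raised in *Terf1* F/F cells only, 4.29% for genes lowered and 2.90% for genes raised in *Rtel1* F/F cells only. Such a match is a description of the letters in this window. The 100 bases before the start of *Tgtp2* (chr11:49064213-49064312, minus strand), *Igtp* (chr11:58199456-58199555, plus strand), *Gm12250* (chr11:58183743-58183842, plus strand) and *Isg15* (chr4:156200819-156200918, minus strand) read as follows on the strand of the gene, 5′ to 3′, with matches in capitals.
Tgtp2: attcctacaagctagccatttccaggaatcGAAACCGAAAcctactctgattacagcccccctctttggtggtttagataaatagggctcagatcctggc
Igtp: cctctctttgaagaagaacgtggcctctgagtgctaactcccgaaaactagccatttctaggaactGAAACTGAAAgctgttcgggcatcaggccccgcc
Gm12250: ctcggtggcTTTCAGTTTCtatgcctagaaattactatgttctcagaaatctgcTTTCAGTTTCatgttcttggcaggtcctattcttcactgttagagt
Isg15: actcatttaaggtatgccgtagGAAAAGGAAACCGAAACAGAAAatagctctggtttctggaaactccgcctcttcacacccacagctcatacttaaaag

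MHC class I presentation genes followed the same pattern from closer starting levels, with a median log2 difference of 0.25 between the +GFP groups of both lines. Of 19 tested members, 11 fell and 0 rose in *Rtel1* F/F cells, 15 rose and 0 fell in *Terf1* F/F cells and 18 differed (94.7%, beside 30.2% of all genes tested, of which 21% fell in *Rtel1* F/F and 2.65% rose in *Terf1* F/F cells), with medians of -1.09 and 0.98 and a median difference of -2.15. *Psmb8*, a catalytic subunit of the immunoproteasome (chromosome 17, 34198195 to 34201454), had 4.65, 8.28 and 9.07 CPM in *Rtel1* F/F +GFP and 0.792, 0.571 and 0.682 CPM in *Rtel1* F/F +Cre libraries. In *Terf1* F/F libraries it had 23.2, 22.8 and 22 CPM (+GFP) and 84.4, 76.7 and 53.1 CPM (+Cre). These groups did not overlap, and the difference was -5.08 (SE 0.333, edgeR quasi-likelihood with Benjamini-Hochberg adjusted p = 5.1e-09), and -1.58 with the mutant +GFP control (edgeR quasi-likelihood with Benjamini-Hochberg adjusted p = 0.0132). *H2-Q4*, a class Ib heavy chain whose reads may be shared with related H2 genes, started at similar levels in both lines, with 20.6, 37.4 and 35.5 CPM in *Rtel1* F/F +GFP and 34.6, 32.1 and 30.1 CPM in *Terf1* F/F +GFP libraries. After Cre it was at 3.24, 3.25 and 4.29 CPM in *Rtel1* F/F and 99.7, 100 and 66.2 CPM in *Terf1* F/F libraries, a difference of -4.58 (SE 0.306). *Tap2*, a subunit of the peptide transporter, had 18.9, 23 and 23.2 CPM (+GFP) and 3.94, 1.99 and 3.52 CPM (+Cre) in *Rtel1* F/F cells, and its rise in *Terf1* F/F cells missed the threshold (edgeR quasi-likelihood with Benjamini-Hochberg adjusted p = 0.0108). Its difference of -4.03 was -1.21 with the mutant +GFP control and was then not called. Against the mutant +GFP control, 4 members of the list had a negative difference, *H2-Q4* among them at -1.46 (edgeR quasi-likelihood with Benjamini-Hochberg adjusted p = 0.00521), and 1 member rose and 0 fell in *Rtel1* F/F cells. In RTEL1 C1252A/C1255A +GFP libraries *H2-Q4* had 3.85, 3.26 and 3.63 CPM, within the range of the *Rtel1* F/F +Cre libraries.

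Nucleic acid sensors and interferon regulators were more divided. Of 25 tested members, 9 fell and 2 rose in *Rtel1* F/F cells, 11 rose and 0 fell in *Terf1* F/F cells, and 15 had a negative and 1 a positive difference (64.0%). Over all genes tested 21% fell and 22% rose in *Rtel1* F/F cells, and 2.65% rose and 0.765% fell in *Terf1* F/F cells. A negative difference was called for 14.5% and a positive one for 15.8% of them. The number of sensors and regulators with a difference was 10 without *Terf1* F/F +GFP replicate 2, and also 10 without *Terf1* F/F +Cre replicate 1. In *Rtel1* F/F cells 4 members rose and 0 fell against the mutant +GFP control, and 5 then had a negative and 0 a positive difference. *Tlr3*, the endosomal receptor of double-stranded RNA, had 25.9, 29.2 and 32.5 CPM (+GFP) and 85.8, 103 and 60.8 CPM (+Cre) in *Terf1* F/F cells, and 2.54, 2.01 and 2.34 CPM against 1.82, 2.58 and 1.75 CPM in *Rtel1* F/F cells. Its groups overlapped in *Rtel1* F/F cells and did not in *Terf1* F/F cells, and the difference of -1.67 (SE 0.258) was -1.48 with the mutant +GFP control (edgeR quasi-likelihood with Benjamini-Hochberg adjusted p = 0.00116). *Irf5*, a regulator of cytokine genes, had 7.03, 9.64 and 9.09 CPM in *Rtel1* F/F +GFP and 5.29, 5.98 and 4.96 CPM in *Terf1* F/F +GFP libraries. It rose to 14.4, 14.8 and 13.8 CPM with Cre in *Terf1* F/F cells, and was at 7.11, 6.43 and 9.14 CPM in *Rtel1* F/F +Cre libraries (difference -1.59, and -0.32 with the mutant +GFP control). Among chemokines and cytokines, 31 tested, 7 rose and 5 fell in *Rtel1* F/F cells, 13 rose and 1 fell in *Terf1* F/F cells, and 10 had a negative and 3 a positive difference (41.9%, beside 30.2% of all genes tested, of which 22% rose and 21% fell in *Rtel1* F/F cells). *Ccl5*, which attracts T cells, had 27.9, 27.6 and 23.9 CPM (+GFP) and 122, 144 and 99.1 CPM (+Cre) in *Terf1* F/F cells, and 58.5, 54.4 and 63.2 CPM against 43.2, 42.5 and 47.0 CPM in *Rtel1* F/F cells. Its difference of -2.61 (SE 0.231) became 0.38 with the mutant +GFP control, whose libraries had 9.17, 4.80 and 8.15 CPM. *Cx3cl1*, a membrane-bound chemokine, was called in opposite directions, with 139, 159 and 152 CPM against 60.2, 46.8 and 60.7 CPM in *Rtel1* F/F cells and 31.3, 33.1 and 32.8 CPM against 43.2, 44.3 and 46.2 CPM in *Terf1* F/F cells (difference -1.88, and -0.14 with the mutant +GFP control). *Ptgs2*, the inducible cyclooxygenase, rose in *Rtel1* F/F cells only, from 116, 37.2 and 41.6 CPM to 349, 550 and 462 CPM, with a difference of 2.5 (SE 0.471) that turned to -0.86 with the mutant +GFP control. Of these 31 genes 2 had a negative difference with the mutant +GFP control.

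**Figure D2:**
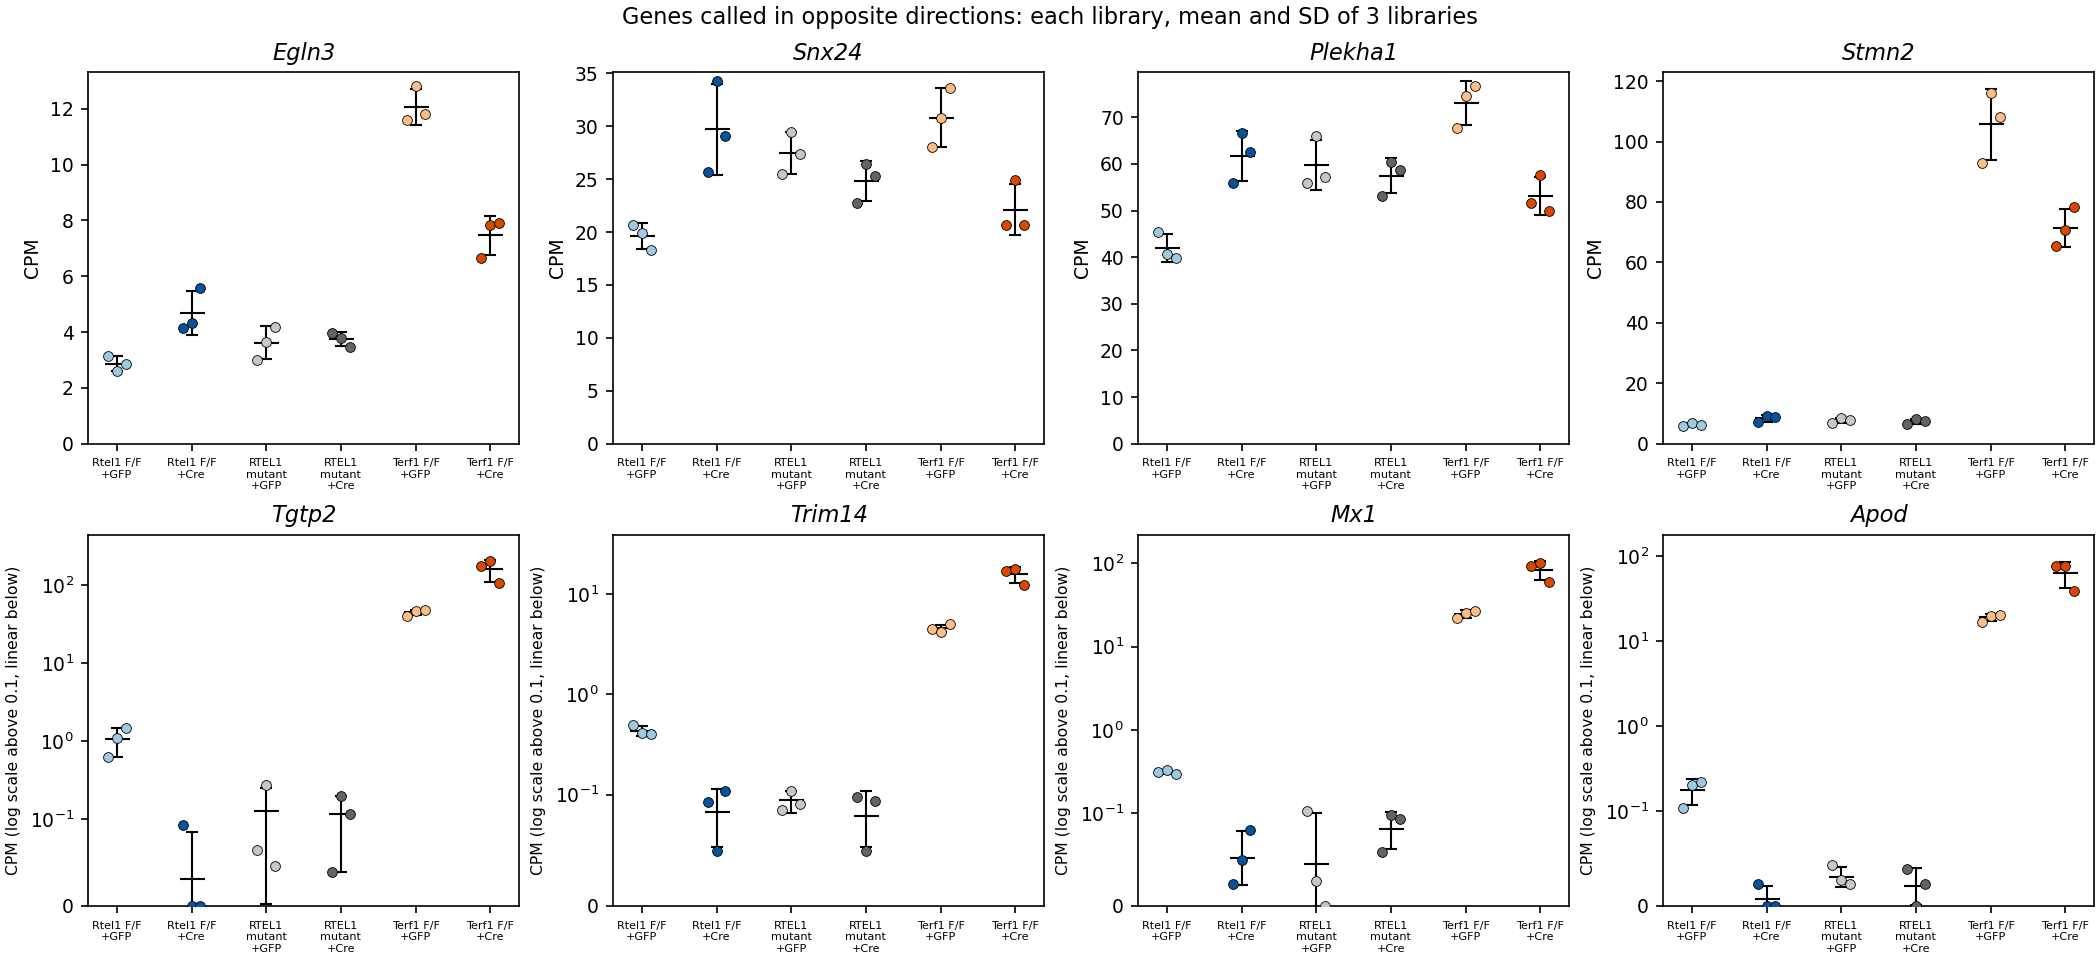
CPM of 8 genes called in opposite directions, 4 of each kind, in each library (points) with the mean and SD of 3 libraries per group (bars). The lower panels have a log scale above 0.1 CPM. Levels with Cre were above those with GFP in *Rtel1* F/F and below in *Terf1* F/F cells in the upper panels, and the reverse in the lower panels, where *Rtel1* F/F libraries were at or below 1.48 CPM and RTEL1 C1252A/C1255A +GFP libraries at or below 0.271 CPM.

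Outside the 4 lists, 62 genes also fell in *Rtel1* F/F and rose in *Terf1* F/F cells. *Apod*, a lipocalin that carries lipids, had 16.9, 20.1 and 20.4 CPM (+GFP) and 76.7, 76.3 and 38.7 CPM (+Cre) in *Terf1* F/F cells, and only 5, 10 and 11 counts against 1, 0 and 0 counts in *Rtel1* F/F cells (fitted difference -5.77, and -3.35 with the mutant +GFP control). For *Apod*, *Tgtp2*, *Trim14* and *Mx1* neither the difference nor the effect in *Rtel1* F/F cells was called with that control. The reverse pattern was called for 9 genes. *Egln3*, an oxygen-sensing prolyl hydroxylase, had 3.14, 2.61 and 2.84 CPM (+GFP) and 4.15, 4.32 and 5.57 CPM (+Cre) in *Rtel1* F/F cells, and 11.6, 12.8 and 11.8 CPM against 6.67, 7.84 and 7.90 CPM in *Terf1* F/F cells. Genes were named from this group only if their libraries with and without Cre did not overlap in either line. For *Egln3* the difference of 1.40 (SE 0.189) was 1.06 with the mutant +GFP control (edgeR quasi-likelihood with Benjamini-Hochberg adjusted p = 0.00122). *Stmn2*, a regulator of microtubules best known from neurons, had 5.70, 6.80 and 6.25 CPM against 7.18, 9.33 and 8.90 CPM in *Rtel1* F/F cells and 93, 116 and 108 CPM against 65.5, 70.6 and 78.2 CPM in *Terf1* F/F cells (difference 1.00, and 0.72 with the mutant +GFP control). *Snx24*, a sorting nexin, and *Plekha1*, a phosphoinositide-binding adaptor, had differences of 1.07 (SE 0.153) and 1.02 (SE 0.125), which were 0.59 and 0.51 with the mutant +GFP control and then missed the threshold. The effect in *Rtel1* F/F cells was not called with that control for *Egln3* (0.37), *Stmn2* (0.15), *Snx24* (0.11) or *Plekha1* (0.048), so none of them kept the opposite responses.

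Of the 112 genes raised in *Terf1* F/F cells only, 28 (25.0%) were in the interferon lists and 84 were not. *Atm*, the kinase that signals DNA double-strand breaks, was the member of the recombination, Fanconi and checkpoint list in this group. It had 91.4, 84.4 and 94.1 CPM (+GFP) and 167, 151 and 128 CPM (+Cre) in *Terf1* F/F cells, and 111, 109 and 90.7 CPM against 106, 113 and 96.3 CPM in *Rtel1* F/F cells. The +Cre libraries were all higher in the *Terf1* F/F line and overlapped the +GFP libraries in the other, with a difference of -0.71 (SE 0.155, edgeR quasi-likelihood with Benjamini-Hochberg adjusted p = 0.00137) that was -0.64 with the mutant +GFP control (edgeR quasi-likelihood with Benjamini-Hochberg adjusted p = 0.0132). The 17 genes that fell in *Terf1* F/F cells only included *Terf1* itself. *Hmgb3*, a high-mobility-group chromatin protein, had 63.0, 78 and 75.5 CPM (+GFP) and 39.5, 46.2 and 44.0 CPM (+Cre) in *Terf1* F/F cells, and 79.3, 72.7 and 74.6 CPM against 80.2, 99.9 and 93.9 CPM in *Rtel1* F/F cells, a difference of 1.01 (SE 0.183) that was 0.56 with the mutant +GFP control (edgeR quasi-likelihood with Benjamini-Hochberg adjusted p = 0.0708). *Dtx4*, a ubiquitin ligase, had 45.1, 38.9 and 40.7 CPM against 29.1, 26.6 and 31.2 CPM in *Terf1* F/F cells (difference 0.78, and 0.38 with the mutant +GFP control). *Lsp1*, an actin-binding protein, had 101, 97.1 and 97.9 CPM against 76.8, 78.3 and 67.1 CPM there, and its difference of 0.67 turned to -0.20 with the mutant +GFP control.

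Many genes of the extracellular matrix passed the test as lower in *Rtel1* F/F cells. Over all genes tested 21% fell and 22% rose in *Rtel1* F/F cells, and 2.65% rose and 0.765% fell in *Terf1* F/F cells. Of 35 tested collagen chain genes, 16 fell and 2 rose in *Rtel1* F/F cells, 1 rose and 0 fell in *Terf1* F/F cells, and 14 differed (40.0%, beside 30.2% of all genes tested), all with a lower effect in *Rtel1* F/F cells (medians -1.25 and 0.17). *Col8a2*, a short-chain collagen of basement membranes, had 79.6, 112 and 101 CPM (+GFP) and 3.36, 2.48 and 3.25 CPM (+Cre) in *Rtel1* F/F cells, and 13.1, 10.3 and 9.75 CPM against 11.1, 9.56 and 9.21 CPM in *Terf1* F/F cells. *Col12a1*, a fibril-associated collagen, had 204, 285 and 219 CPM against 76.6, 61.4 and 66.0 CPM in *Rtel1* F/F cells and 753, 608 and 627 CPM against 960, 777 and 788 CPM in *Terf1* F/F cells. The *Rtel1* F/F groups lay far apart for both collagens, and differences were -4.86 (SE 0.267) and -2.14 (SE 0.234). RTEL1 C1252A/C1255A +GFP libraries had 6.12, 4.50 and 5.64 CPM of *Col8a2*, for which the difference was then -0.70 (edgeR quasi-likelihood with Benjamini-Hochberg adjusted p = 0.138), and 123, 129 and 107 CPM of *Col12a1*, for which it was -1.16 (edgeR quasi-likelihood with Benjamini-Hochberg adjusted p = 0.00346). Over the list, 4 genes had a negative and 1 a positive difference with the mutant +GFP control.

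Small leucine-rich proteoglycans, which bind collagen fibrils and growth factors, had 8 members with a negative and 1 with a positive difference among 14 tested (64.3%, beside 30.2% of all genes tested), and 0 called in *Terf1* F/F cells by edgeR. *Fmod* (fibromodulin, chromosome 1, 134037254 to 134048280) had 46.7, 97.6 and 88.0 CPM (+GFP) and 0.419, 0.596 and 0.464 CPM (+Cre) in *Rtel1* F/F cells, and 0.974, 0.988 and 0.645 CPM against 0.965, 0.825 and 1.20 CPM in *Terf1* F/F cells. Only *Rtel1* F/F +GFP libraries thus had high levels of *Fmod*, with a difference of -7.47 (SE 0.390). It was -1.59 and not called with the mutant +GFP control, whose libraries had 1.46, 1.36 and 1.10 CPM. *Ogn* (osteoglycin) had 133, 255 and 211 CPM against 19.8, 25.5 and 20.4 CPM in *Rtel1* F/F cells and 302, 329 and 359 CPM against 348, 372 and 235 CPM in *Terf1* F/F cells (difference -3.14, and -0.75, not called, with the mutant +GFP control). Of 43 matrix glycoproteins and elastic fibre genes, 24 fell and 5 rose in *Rtel1* F/F cells, 1 rose and 1 fell in *Terf1* F/F cells, and 21 had a negative and 4 a positive difference (58.1%). *Mfap2*, a microfibril protein, had 31, 118 and 100 counts with GFP and 0 with Cre in the 3 *Rtel1* F/F libraries, so that it was at least 22.6-fold lower with 3 counts per library as the floor, and 17.6, 17.0 and 14.2 CPM against 17.4, 17.4 and 16.8 CPM in *Terf1* F/F cells. Mutant +GFP libraries had 19, 4 and 15 counts of *Mfap2*, and against them neither the effect in *Rtel1* F/F cells nor the difference was called. *Fbn2* (fibrillin 2) had 175, 250 and 203 CPM against 14.6, 9.70 and 11.4 CPM in *Rtel1* F/F cells and 271, 206 and 214 CPM against 225, 167 and 200 CPM in *Terf1* F/F cells (difference -3.91, and -0.90, not called, with the mutant +GFP control). Of 26 matrix metalloproteinases, ADAMTS proteases and TIMPs, 14 had a negative and 1 a positive difference (57.7%). *Mmp9*, a gelatinase, had 106, 153 and 145 CPM against 28.2, 19.5 and 30.5 CPM in *Rtel1* F/F cells and at most 1.34 CPM in *Terf1* F/F libraries, and its difference of -2.42 (SE 0.366) turned to 1.99 with the mutant +GFP control. With that control 3 genes were lower and 3 higher among the proteases, 5 and 3 among the glycoproteins and 0 and 2 among the proteoglycans.

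Secreted signals and their receptors showed a similar pattern. Of 36 BMP ligands, antagonists and Id targets, 16 fell and 6 rose in *Rtel1* F/F cells, 2 rose and 0 fell in *Terf1* F/F cells, and 12 had a negative and 3 a positive difference (41.7%, beside 30.2% of all genes tested). *Bmp4* (chromosome 14, 46383525 to 46390669), a ligand of the BMP receptors, had 14.2, 23.7 and 23.5 CPM (+GFP) and 2.33, 1.24 and 1.99 CPM (+Cre) in *Rtel1* F/F cells, and 15.4, 15.3 and 14.1 CPM against 17.2, 17.7 and 13.5 CPM in *Terf1* F/F cells. Both lines expressed *Bmp4* at overlapping levels before Cre, and the difference of -3.57 (SE 0.279, edgeR quasi-likelihood with Benjamini-Hochberg adjusted p = 3.3e-08) was -1.32 with the mutant +GFP control (edgeR quasi-likelihood with Benjamini-Hochberg adjusted p = 0.00523). *Id3*, a BMP target, had 58.3, 134 and 123 CPM against 17.5, 6.33 and 16.5 CPM in *Rtel1* F/F cells, and its difference of -3.24 was 0.05 with the mutant +GFP control. Of 37 Wnt ligands, antagonists and targets, 19 fell and 3 rose in *Rtel1* F/F cells, 1 rose and 0 fell in *Terf1* F/F cells, and 15 had a negative and 3 a positive difference (48.6%). Over all genes tested 22% rose and 21% fell in *Rtel1* F/F cells, and 2.65% rose and 0.765% fell in *Terf1* F/F cells. *Fzd1*, a Wnt receptor, had 74.4, 144 and 130 CPM against 6.20, 5.73 and 6.99 CPM in *Rtel1* F/F cells and 55.2, 52.8 and 51.5 CPM against 48.6, 44.3 and 39.9 CPM in *Terf1* F/F cells (difference -3.94, SE 0.239, and -0.71, not called, with the mutant +GFP control). With that control 7 genes were lower and 1 higher in each of these 2 lists.

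Of 20 genes of the IGF axis, 12 fell and 2 rose in *Rtel1* F/F cells, 0 rose and 2 fell in *Terf1* F/F cells, and 9 had a negative and 2 a positive difference (55.0%, beside 30.2% of all genes tested), against 2 and 4 with the mutant +GFP control. Of all genes tested 21% fell and 22% rose in *Rtel1* F/F cells, and 2.65% rose and 0.765% fell in *Terf1* F/F cells. *Igf1* had 62.7, 94.7 and 80.7 CPM (+GFP) and 6.13, 8.81 and 6.91 CPM (+Cre) in *Rtel1* F/F cells, and 6.03, 5.31 and 5.81 CPM against 4.78, 4.56 and 3.96 CPM in *Terf1* F/F cells. Among these 12 only the *Rtel1* F/F +GFP libraries were high, and the difference of -3.08 (SE 0.205) was 0.48 with the mutant +GFP control, whose libraries had 6.33, 6.95 and 6.85 CPM. *Igf2*, the fetal growth factor, had 5.12, 10.6 and 9.90 CPM against 0.746, 0.670 and 1.01 CPM in *Rtel1* F/F cells and 34.3, 32.2 and 32.9 CPM against 30.4, 27.0 and 25.6 CPM in *Terf1* F/F cells. Its difference of -3.14 (SE 0.326) turned to 1.84 with the mutant +GFP control. Among 11 angiotensin receptors and surface peptidases, 7 fell in *Rtel1* F/F cells, 0 were called in *Terf1* F/F cells by edgeR, and 5 had a negative difference (45.5%, beside 14.5% of all genes tested). *Agtr2* (chromosome X, 21484624 to 21488833), the type 2 angiotensin receptor, had 6.63, 13.9 and 12.4 CPM (+GFP) and 4, 5 and 2 counts (+Cre) in *Rtel1* F/F cells, and 45.3, 52.3 and 53.4 CPM against 42.3, 48.9 and 35.3 CPM in *Terf1* F/F cells. *Mme* (neprilysin), a membrane peptidase, had 85.1, 132 and 110 CPM against 5.80, 5.19 and 5.21 CPM in *Rtel1* F/F cells and 324, 328 and 379 CPM against 349, 343 and 240 CPM in *Terf1* F/F cells. Both kept a negative difference with the mutant +GFP control, -2.70 for *Agtr2* (edgeR quasi-likelihood with Benjamini-Hochberg adjusted p = 0.00141) and -1.60 for *Mme* (edgeR quasi-likelihood with Benjamini-Hochberg adjusted p = 4.8e-05).

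Lowered members in *Rtel1* F/F cells also outnumbered raised ones among adhesion genes and long genes. Among 35 clustered protocadherins and cadherins 21 fell and 3 rose, 0 were called in *Terf1* F/F cells by edgeR, and 18 had a negative and 2 a positive difference (57.1%, beside 30.2% of all genes tested, of which 21% fell in *Rtel1* F/F cells). Over all genes tested 22% rose in *Rtel1* F/F cells, and 2.65% rose and 0.765% fell in *Terf1* F/F cells. *Cdh13*, a cadherin without a transmembrane part, had 37.0, 41.1 and 42.3 CPM (+GFP) and 8.65, 7.44 and 8.54 CPM (+Cre) in *Rtel1* F/F cells, and 31.4, 28.0 and 27.7 CPM against 32.3, 26.6 and 33.5 CPM in *Terf1* F/F cells. Its difference was -2.38 (SE 0.133), and -1.53 with the mutant +GFP control (edgeR quasi-likelihood with Benjamini-Hochberg adjusted p = 5.7e-07). Among 27 very long genes of common fragile sites 16 fell and 2 rose in *Rtel1* F/F cells, 1 rose and 0 fell in *Terf1* F/F cells, and 13 had a negative and 1 a positive difference (51.9%). *Prkg1*, a cGMP-dependent kinase, had 6.63, 8.30 and 7.71 CPM against 1.21, 1.32 and 0.928 CPM in *Rtel1* F/F cells and 10.9, 10.9 and 11.7 CPM against 13.6, 12.4 and 10.7 CPM in *Terf1* F/F cells. The difference was -2.83 (SE 0.196), and -1.93 with the mutant +GFP control (edgeR quasi-likelihood with Benjamini-Hochberg adjusted p = 3.8e-06). *Dlg2*, a synaptic scaffold gene, had 6.23, 6.82 and 6.91 CPM against 0.746, 0.844 and 0.737 CPM in *Rtel1* F/F cells and differed by -3.17 (-1.70 with the mutant +GFP control). With that control 9 of the 27 long genes had a negative and 0 a positive difference, while 6 protocadherin and cadherin genes were lower and 4 higher. Among 53 mesenchymal transcription factors 28 fell and 2 rose in *Rtel1* F/F cells, 1 rose and 1 fell in *Terf1* F/F cells, and 19 had a negative and 2 a positive difference (39.6%), against 6 and 2 with the mutant +GFP control. *Sox5* had 15.5, 20.8 and 19.5 CPM against 5.55, 5.16 and 5.84 CPM in *Rtel1* F/F cells and 1.07, 0.827 and 0.819 CPM against 1.16, 1.12 and 1.10 CPM in *Terf1* F/F cells, a difference of -2.07 (SE 0.177) that was -0.83 with the mutant +GFP control.

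Of 77 cytosolic ribosomal protein genes 48 rose and 0 fell in *Rtel1* F/F cells (22% and 21% of all genes tested), 0 were called in *Terf1* F/F cells by edgeR (2.65% rose and 0.765% fell over all genes tested), and 37 had a positive difference (48.1%, beside 15.8% of all genes tested), with medians of 0.50 and 0.046. *Rps23*, a protein of the small subunit, had 616, 526 and 593 CPM (+GFP) and 1209, 1256 and 1248 CPM (+Cre) in *Rtel1* F/F cells, and 615, 708 and 675 CPM against 605, 619 and 611 CPM in *Terf1* F/F cells. The *Rtel1* F/F +Cre libraries were above the other 9 of these libraries, and the difference was 1.22 (SE 0.114, edgeR quasi-likelihood with Benjamini-Hochberg adjusted p = 2.9e-07). RTEL1 C1252A/C1255A +GFP libraries had 1096, 1219 and 1161 CPM, and against them no ribosomal protein gene was called in either direction. Of 75 nuclear-encoded respiratory chain subunits 35 rose and 1 fell in *Rtel1* F/F cells, and 17 had a positive difference (22.7%, beside 15.8% of all genes tested), a number that was between 9 and 22 when single libraries were left out. It was 9 without *Rtel1* F/F +GFP replicate 2 or *Terf1* F/F +GFP replicate 2, 10 without *Terf1* F/F +Cre replicate 1 and 11 without *Rtel1* F/F +Cre replicate 3 or *Terf1* F/F +Cre replicate 3, 32 at an adjusted p of at most 0.05 (edgeR, Benjamini-Hochberg) and 0 with the mutant +GFP control. A replicate block, with libraries of the same number paired, gave 32 genes with a difference. *Cox7b*, a subunit of complex IV, had 149, 137 and 152 CPM against 289, 254 and 264 CPM in *Rtel1* F/F cells and 123, 139 and 133 CPM against 139, 140 and 132 CPM in *Terf1* F/F cells (difference 0.82, SE 0.138, and 0.014 with the mutant +GFP control).

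Among 24 G-quadruplex helicases and R-loop factors 8 rose and 1 fell in *Rtel1* F/F cells, with a positive difference for 8 and a negative one for 1 (37.5%, beside 30.2% of all genes tested) and 0 calls in *Terf1* F/F cells by edgeR. Of all genes tested 22% rose and 21% fell in *Rtel1* F/F cells, and 2.65% rose and 0.765% fell in *Terf1* F/F cells. *Ddx21*, a helicase that unwinds R-loops in the nucleolus (chromosome 10, 62580247 to 62602298), had 247, 164 and 165 CPM (+GFP) and 439, 518 and 473 CPM (+Cre) in *Rtel1* F/F cells, and 216, 226 and 218 CPM against 217, 228 and 240 CPM in *Terf1* F/F cells. *Top1*, topoisomerase I, which relaxes supercoiled DNA, had 105, 90.2 and 86.6 CPM against 143, 194 and 159 CPM in *Rtel1* F/F cells and 127, 140 and 148 CPM against 122, 134 and 113 CPM in *Terf1* F/F cells. In both genes the *Rtel1* F/F groups did not overlap, with differences of 1.26 (SE 0.162) and 0.99 (SE 0.159), which were -0.065 and 0.16 with the mutant +GFP control. Among 20 shelterin, CST and telomerase genes 5 had a positive and 3 a negative difference (40.0%, beside 30.2%), both deleted genes included. Apart from the deleted genes, *Dkc1*, the pseudouridine synthase of the telomerase and snoRNA particles, had 136, 92.2 and 95.7 CPM against 221, 240 and 210 CPM in *Rtel1* F/F cells and 80.7, 77.1 and 75.7 CPM against 77.3, 69.8 and 82.4 CPM in *Terf1* F/F cells (difference 1.08, and 0.021 with the mutant +GFP control). *Nhp2*, another protein of those particles, had 51.1, 37.9 and 42.8 CPM against 104, 73.3 and 97.6 CPM in *Rtel1* F/F cells (difference 1.06, SE 0.201, and 0.079 with the mutant +GFP control). With the mutant +GFP control no factor of the first list kept a call, and in the second *Rtel1* and *Terf1* did. The *Rtel1* difference of -3.40 with this control cannot show the deletion, because the mutant +GFP libraries had 338, 328 and 331 CPM from the expressed mutant too.

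Of 28 cholesterol synthesis and LDL receptor genes 13 rose and 0 fell in *Rtel1* F/F cells, 0 rose and 1 fell in *Terf1* F/F cells, and 14 had a positive difference (50%, beside 15.8% of all genes tested), with medians of 0.24 and -0.12. Over all genes tested 22% rose and 21% fell in *Rtel1* F/F cells, and 2.65% rose and 0.765% fell in *Terf1* F/F cells. *Idi1*, the isopentenyl diphosphate isomerase, had 365, 297 and 313 CPM (+GFP) and 611, 718 and 658 CPM (+Cre) in *Rtel1* F/F cells, and 205, 256 and 260 CPM against 210, 249 and 204 CPM in *Terf1* F/F cells, a difference of 1.15 (SE 0.202) that was 0.55 with the mutant +GFP control. Against the mutant +GFP control 4 genes of the list had a positive difference. Among 29 glycolysis and hypoxia-response genes 8 had a positive and 3 a negative difference (37.9%, beside 30.2% of all genes tested), against 2 and 1 with the mutant +GFP control. *Pgk1*, phosphoglycerate kinase, had 683, 591 and 638 CPM against 1068, 1223 and 1249 CPM in *Rtel1* F/F cells and 805, 882 and 841 CPM against 797, 802 and 872 CPM in *Terf1* F/F cells (difference 0.92, SE 0.128, and 0.17 with the mutant +GFP control).

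Both lines had raised members among the targets of p53. Of 34 tested, 16 rose and 5 fell in *Rtel1* F/F cells, and 11 rose and 0 fell in *Terf1* F/F cells, with medians of 0.36 and 0.52. Over all genes tested 22% rose and 21% fell in *Rtel1* F/F cells, and 2.65% rose and 0.765% fell in *Terf1* F/F cells. For the p53 targets the difference was positive for 10 and negative for 6 (47.1% of the list, beside 30.2% of all genes tested). In both lines 7 of them were called in the same direction, as were 1.08% of all genes tested. When the mutant +GFP control was used, 7 rose and 0 fell in *Rtel1* F/F cells, and 2 had a negative difference. *Cdkn1a*, which encodes the CDK inhibitor p21 and was chosen after its values were seen (chromosome 17, 29090979 to 29100722), had 51.0, 49.1 and 53.2 CPM (+GFP) and 123, 113 and 121 CPM (+Cre) in *Rtel1* F/F cells, and 261, 261 and 238 CPM against 432, 438 and 422 CPM in *Terf1* F/F cells. Within each line no +Cre library was as low as a +GFP library, and the rises were 1.22 (SE 0.0556) and 0.77 (SE 0.0548), and the difference of 0.46 (SE 0.0773, edgeR quasi-likelihood with Benjamini-Hochberg adjusted p = 1.5e-04) was 0.13 with the mutant +GFP control (edgeR quasi-likelihood with Benjamini-Hochberg adjusted p = 0.424). *Eda2r*, a receptor of the TNF family, had 5.32, 3.76 and 3.61 CPM against 26.1, 25.9 and 27.4 CPM in *Rtel1* F/F cells and 39.1, 42.1 and 40.9 CPM against 83.7, 88.7 and 76.0 CPM in *Terf1* F/F cells, a difference of 1.62 (SE 0.168) that was -0.32 with the mutant +GFP control. *Perp*, an apoptosis effector at cell junctions, had 1.62, 2.20 and 2.14 CPM against 5.45, 5.61 and 5.90 CPM and 3.99, 4.48 and 3.92 CPM against 12, 11.7 and 11.8 CPM, rises whose difference, -0.013, had an SE of 0.216. With the mutant +GFP control the effect on *Perp* in *Rtel1* F/F cells turned to -0.21, and the difference was -1.73 (edgeR quasi-likelihood with Benjamini-Hochberg adjusted p = 1.4e-05). *Fas*, the death receptor, fell in *Rtel1* F/F cells from 29.0, 42.8 and 41.4 CPM to 12.4, 15.1 and 14.6 CPM, and had 6.61, 7.19 and 7.47 CPM against 10.8, 12.1 and 9.50 CPM in *Terf1* F/F cells, where its rise missed the threshold (edgeR quasi-likelihood with Benjamini-Hochberg adjusted p = 0.0344). For *Fas* the effect in *Rtel1* F/F cells was 0.032 and the difference -0.58 with the mutant +GFP control, and neither was called.

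Among further genes called in the same direction, *Ccne1* (cyclin E1) had 10.8, 8.90 and 9.80 CPM (+GFP) and 25.9, 27.3 and 25.3 CPM (+Cre) in *Rtel1* F/F cells, and 58.6, 61.1 and 58.4 CPM against 89.9, 90.1 and 85.9 CPM in *Terf1* F/F cells. *Cd80*, a costimulatory ligand of T cells, had 1.58, 0.966 and 1.32 CPM against 4.94, 5.31 and 5.24 CPM in *Rtel1* F/F cells and 10.3, 11.7 and 10.4 CPM against 26.9, 30.2 and 22.3 CPM in *Terf1* F/F cells. Both rose more in *Rtel1* F/F cells, with differences of 0.83 (SE 0.106) and 0.71 (SE 0.200), which were -0.25 and -0.35 with the mutant +GFP control. *Gadd45a*, a stress sensor, fell in both lines, from 44.1, 45.0 and 45.0 CPM to 25.0, 30.0 and 24.2 CPM and from 43.8, 40.6 and 42.6 CPM to 28.0, 29.3 and 24.7 CPM, and its effect in *Rtel1* F/F cells, -0.76, was -0.075 with the mutant +GFP control. *Cxadr*, the receptor of coxsackieviruses and many adenoviruses, fell by 0.75 (SE 0.0881) in *Rtel1* F/F and by 0.82 (SE 0.0865) in *Terf1* F/F cells. The number of genes with the same direction, 148, was 95 without *Rtel1* F/F +GFP replicate 3, 86, 72 and 74 without *Terf1* F/F +GFP replicates 1, 2 and 3, and 70, 72 and 90 without *Terf1* F/F +Cre replicates 1, 2 and 3. When the 12 libraries were fitted alone it was 95, and with the mutant +GFP control 93.

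Of 42 DNA replication genes 3 had a positive and 3 a negative difference (14.3%), and of 40 genes of recombination, the Fanconi pathway and checkpoints 3 and 1 (10.0%), beside 30.2% of all genes tested with a difference in either direction. These totals, 6 and 4, depended on the libraries and settings. They were between 3 and 9 for replication and between 2 and 6 for recombination genes when single libraries were left out, and 15 and 7 at an adjusted p of at most 0.05 (edgeR, Benjamini-Hochberg). DESeq2 gave 10 replication genes. With a replicate block, in which libraries of the same number are paired, 17 replication genes differed, beside 5541 of 13719 genes tested. For replication genes the total was 3 without *Rtel1* F/F +GFP replicate 3, *Terf1* F/F +GFP replicate 2, *Terf1* F/F +Cre replicate 1 or *Terf1* F/F +Cre replicate 3. For recombination genes it was 2 without *Rtel1* F/F +GFP replicate 2 or 3, or without replicate 2 of *Rtel1* F/F +Cre, *Terf1* F/F +GFP or *Terf1* F/F +Cre. *Lig1*, the ligase that joins Okazaki fragments, had 200, 206 and 211 CPM against 127, 129 and 140 CPM in *Rtel1* F/F cells and 137, 139 and 139 CPM against 125, 129 and 130 CPM in *Terf1* F/F cells (difference -0.52, SE 0.0695, and -0.044 with the mutant +GFP control). *Rrm2*, a subunit of ribonucleotide reductase, had 87.4, 65.9 and 70.4 CPM against 148, 191 and 172 CPM in *Rtel1* F/F cells, with a difference of 0.98 that was -0.0093 with the mutant +GFP control. Of 30 mitotic genes 14 rose and 1 fell in *Rtel1* F/F cells, where 22% and 21% of all genes tested did. A positive difference was found for 9 (30.0%, beside 15.8% of all genes tested), 3 without *Rtel1* F/F +GFP replicate 2 and 5 without replicate 3. *Kif20a*, a mitotic kinesin, had 264, 241 and 248 CPM against 354, 385 and 353 CPM in *Rtel1* F/F cells and 222, 217 and 217 CPM against 220, 205 and 237 CPM in *Terf1* F/F cells (difference 0.53, SE 0.0864, and 0.098 with the mutant +GFP control). Of 21 CDK inhibitor, *Trp53*, Rb and E2F genes 4 had a positive and 4 a negative difference (38.1%, beside 30.2%). Their total of 8 was 4 without *Rtel1* F/F +GFP replicate 2, *Rtel1* F/F +GFP replicate 3 or *Terf1* F/F +Cre replicate 1, and 5 without *Terf1* F/F +GFP replicate 1, 2 or 3 or *Terf1* F/F +Cre replicate 2. The block gave 13. *Cdkn1b*, which encodes p27, had 64.9, 87.3 and 82.9 CPM against 37.1, 30.1 and 32.8 CPM in *Rtel1* F/F cells and 76.3, 73.6 and 71.0 CPM against 73.5, 69.2 and 67.1 CPM in *Terf1* F/F cells (difference -1.16, SE 0.165, and -0.28 with the mutant +GFP control). No member of these 4 lists had a called difference with that control.

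Among the remaining lists, 5 of 36 Hox genes had a negative and 2 a positive difference (19.4%, beside 30.2% of all genes tested), as did 4 and 6 of 30 smooth muscle and SRF targets (33.3%), 5 and 5 of 25 YAP and TAZ targets (40.0%), and 5 and 2 of 30 ATF4 targets (23.3%). These were 0 and 2, 4 and 0, 5 and 0, and 1 and 1 with the mutant +GFP control. Of 28 NRF2 targets 2 had a negative and 7 a positive difference (32.1%), against 2 and 0 with the mutant +GFP control. Their total of 9 was 4 without *Rtel1* F/F +GFP replicate 2 or 3 or *Terf1* F/F +Cre replicate 1, and 5 without *Terf1* F/F +GFP replicate 2 or *Terf1* F/F +Cre replicate 3. Of 7 gap junction connexins 2 had a positive difference (28.6%), and 1 did without *Rtel1* F/F +GFP replicate 2 or 3, *Rtel1* F/F +Cre replicate 1 or 3, *Terf1* F/F +GFP replicate 1 or 2, or *Terf1* F/F +Cre replicate 1 or 2, with 1 positive and 1 negative under the mutant +GFP control.

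**Figure D3:**
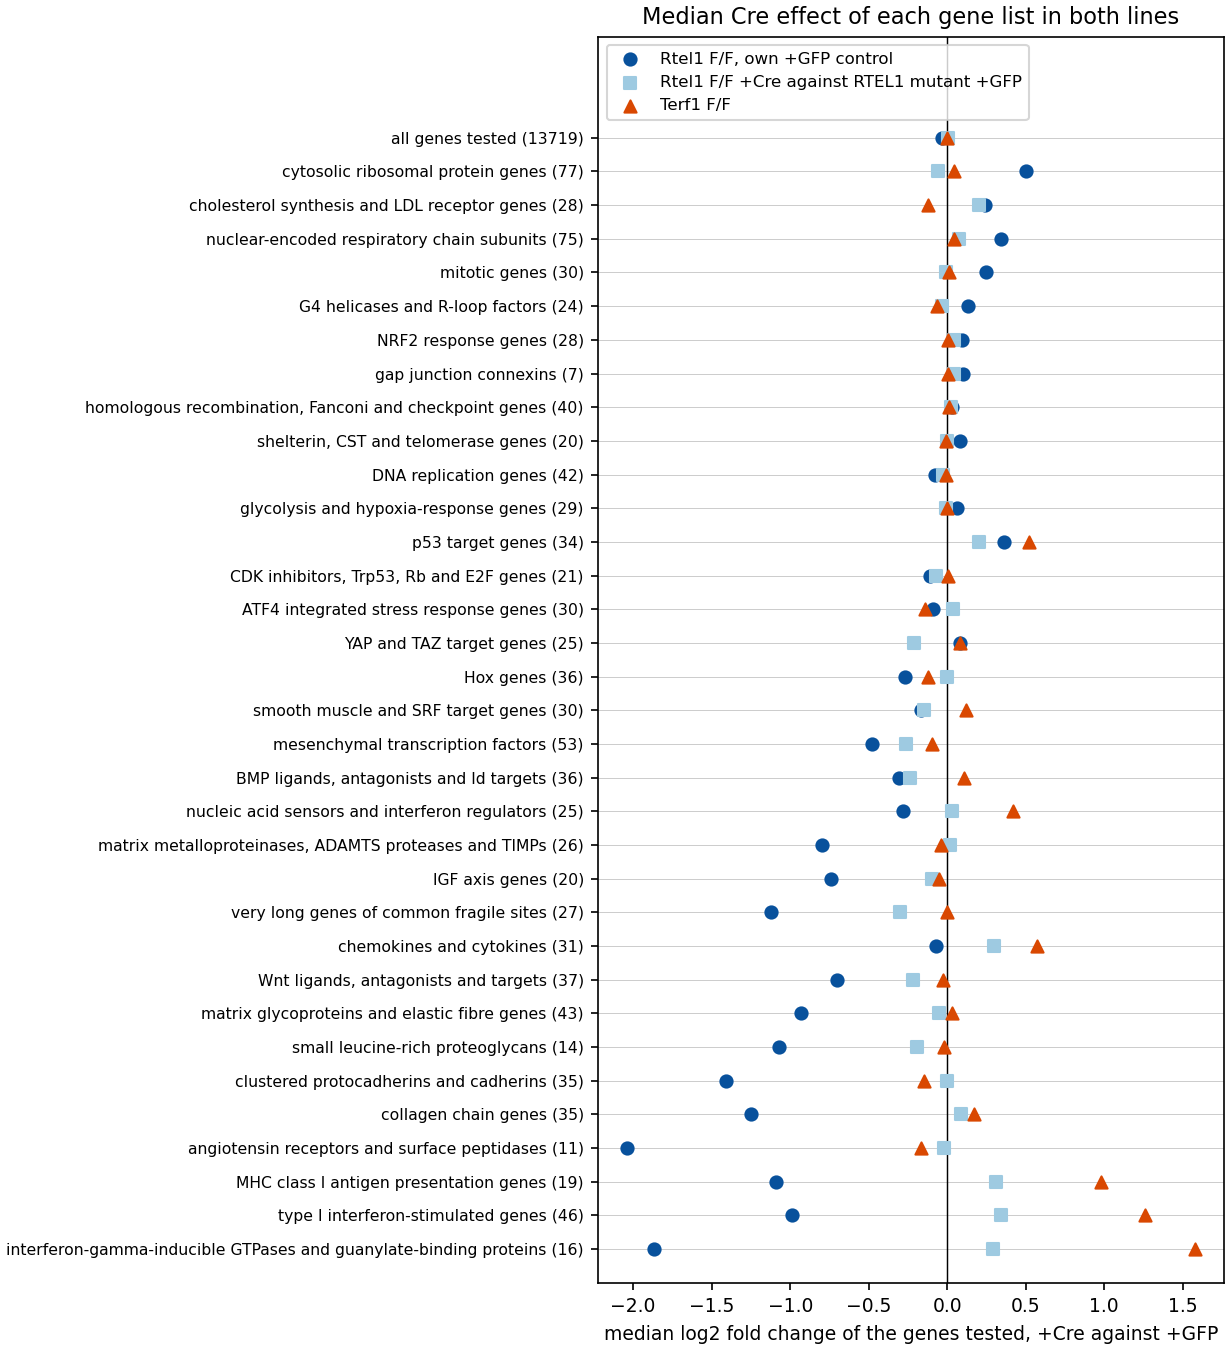
Median log2 fold change of +Cre against +GFP over the tested genes of each list (number in parentheses) in *Rtel1* F/F cells with their own control (circles) or the mutant +GFP control (squares), and in *Terf1* F/F cells (triangles). The lists of inducible GTPases, type I interferon-stimulated genes and MHC class I presentation have circles at -1.87 to -0.99 and triangles at 0.98 to 1.58. Sensors and interferon regulators are at -0.28 and 0.42, and the 4 matrix lists have circles at -1.25 to -0.80 and triangles at -0.037 to 0.17.

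G-quadruplex motifs (4 runs of at least 3 G with at most 7 bases between runs) were present on either strand in 31.7% of the promoters of all genes tested. The share was 37.2% for genes lowered in *Rtel1* F/F cells only, 28.4% for genes raised in *Rtel1* F/F cells only, 24.1% for genes raised in *Terf1* F/F cells only, and 29.4% for genes that fell in *Rtel1* F/F and rose in *Terf1* F/F cells. These shares describe the sequences and were not tested.

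Markers of fibroblasts summed to 6009 to 12341 TPM (the length-scaled values of the authors) in the 12 libraries, with *S100a4* the most abundant, and none of the 12 markers was at 0. The most abundant marker of each list was taken by the mean of the 12 libraries, and in a single group another marker may have been higher. Of them 7 fell and 3 rose in *Rtel1* F/F cells (21% and 22% of all genes tested), and 0 rose and 1 fell in *Terf1* F/F cells (2.65% and 0.765%). *Thy1*, a surface marker of many fibroblasts named after its values were seen, had 222 to 269 CPM in *Terf1* F/F libraries and at most 0.326 CPM in *Rtel1* F/F libraries. Macrophage and leukocyte markers summed to 9.58 to 16.8 TPM, with *Cd14* the most abundant and *Adgre1*, *Tyrobp* and *Cd3e* at 0 in all 12 libraries. Endothelial markers summed to 6.77 to 29.6 TPM (*Egfl7* the most abundant, *Emcn* and *Cldn5* at 0), epithelial markers to 2.85 to 10.0 TPM (*Krt19*), and skeletal muscle markers to 0.470 to 3.98 TPM (*Acta1*, with *Myod1*, *Pax7* and *Tmem8c* at 0). Neural and glial markers summed to 36.6 to 47.8 TPM in *Rtel1* F/F and 126 to 176 TPM in *Terf1* F/F libraries, with *Foxd3* at 0. By the mean of the 12 libraries *Stmn2* led this list. It had 7.19 and 8.24 TPM in *Rtel1* F/F +GFP and +Cre and 119 and 79.3 TPM in *Terf1* F/F +GFP and +Cre cells. Adipocyte markers summed to 6.44 to 10.7 TPM in *Rtel1* F/F and 29.9 to 44.0 TPM in *Terf1* F/F libraries (*Fabp4*, with *Plin1*, *Cidec* and *Lep* at 0). Pluripotent cell markers summed to 0.330 to 0.790 TPM, with *Nanog* the most abundant and *Zfp42*, *Sall4* and *Lin28a* at 0. The +GFP and +Cre libraries of *Rtel1* F/F cells did not overlap for 6 of the 8 sums. Group means with GFP and with Cre were 7812 and 6205 TPM for fibroblast, 9.91 and 14.7 TPM for macrophage and leukocyte, 17.5 and 8.57 TPM for endothelial, 3.55 and 8.90 TPM for epithelial, 45.6 and 38.7 TPM for neural and glial, and 0.980 and 0.530 TPM for muscle markers. In *Terf1* F/F cells 3 sums did not overlap, with means of 3.41 and 5.78 TPM for epithelial, 169 and 131 TPM for neural and glial, and 2.52 and 3.38 TPM for muscle markers. The part of other cell types in the results was not tested.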

How the data were processed

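The authors deposited expected counts and TPM per gene from RSEM 1.3.0 after trimming with cutadapt 1.9.1 and alignment to mm10 with STAR 2.5.2a, as stated in the processing notes of the submitters. The deposited expected counts were rounded to whole numbers and used for every test. The deposited TPM were used only for the marker lists, to compare genes with each other and to compare the sums of markers between libraries and groups. All 21 libraries were fitted together as 7 groups in edgeR 4.0.16 (R 4.3.3, limma 3.58.1) after filtering with filterByExpr and TMM normalization, with robust quasi-likelihood tests. Genes were called at a Benjamini-Hochberg adjusted p of at most 0.01. SE is the log2 fold change divided by the square root of F. CPM were scaled to the normalized library sizes.

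Genes named are the targeted genes, up to 4 per group and direction by the size of the difference with a mean of at least 5 CPM, up to 4 per list with at least 1 CPM, the most abundant gene of each marker list, and the extra genes named as chosen after their values were seen. Means were taken over the 12 libraries, so that high levels in 1 line could be enough. Genes named for a group also had no overlap between +Cre and +GFP libraries in each line where they were called. Genes with opposite or same-direction responses were ranked by the smaller of both absolute log2 fold changes. Genes the rule took whose call was lost without 1 library, and most near-identical copies, are not described in the text. A few further genes the rule took, or that had been added to it, are not reported, and no other genes took their place. The libraries and the 33 program and 8 marker lists were chosen with earlier results of these data known.

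Other settings tried: DESeq2 1.42.0, edgeR with DESeq2 size factors, other count filters, the 12 libraries alone, a replicate block, an adjusted p of at most 0.05, an absolute log2 fold change of at least 1, the mutant +GFP control and leaving out each library. Promoters were read from RefSeq on GRCm38.p6. Summaries and figures used Python 3.11.15, numpy 2.4.6, pandas 2.3.3, scipy 1.17.1 and matplotlib 3.10.9.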

Additional observations from a re-analysis of the deposited data

Results flagged for a closer look

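The effect of Cre differed between the *Rtel1* F/F and *Terf1* F/F lines for 4147 genes. Genes that rose with Cre in *Rtel1* F/F and fell in *Terf1* F/F cells had differences of 1.40 (*Egln3*), 1.07 (*Snx24*), 1.02 (*Plekha1*) and 1.00 (*Stmn2*) on the log2 scale. With the RTEL1 C1252A/C1255A +GFP libraries as control their effects in *Rtel1* F/F cells were 0.37, 0.11, 0.048 and 0.15, and none was called. The difference was then called for *Egln3* and *Stmn2* and not for *Snx24* and *Plekha1*. Genes that fell in *Rtel1* F/F and rose in *Terf1* F/F cells had differences of -6.74 (*Tgtp2*), -4.12 (*Trim14*), -4.35 (*Mx1*) and -5.77 (*Apod*), all 4 from few counts in *Rtel1* F/F cells. For these 4 genes neither the difference nor the effect in *Rtel1* F/F cells was called with the RTEL1 C1252A/C1255A +GFP libraries as control.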

How the results depend on the processing

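With an absolute log2 fold change of at least 1 required, 1569 genes differed, with 1188 in the *Rtel1* F/F-only, 61 in the *Terf1* F/F-only, 46 in the opposite and 23 in the same-direction group. In the lists 77 interferon genes were then lower. Differences remained for 7 ribosomal protein, 4 p53 target, 2 respiratory chain, 1 cholesterol, 1 glycolysis and 0 mitotic genes. At an adjusted p of at most 0.05 (edgeR, Benjamini-Hochberg) the opposite group had 248 and the same-direction group 328 genes, and with the 12 libraries alone the latter had 95. With the mutant +GFP control 600 genes differed, 402 were *Rtel1* F/F-only, 27 opposite and 93 in the same direction, and 25 interferon genes were lower. Leaving out each library gave 3021 to 4271 genes that differed, 2631 to 3754 *Rtel1* F/F-only, 83 to 133 *Terf1* F/F-only, 81 to 146 opposite, 70 to 177 same-direction and 80 to 87 lower interferon genes. With a replicate block (paired libraries) these were 5541, 4890, 162, 168, 207 and 91, and with DESeq2 4460, 3892, 155, 164, 215 and 90. For each library the deviation of its log2 CPM from the mean of its own group was taken. Between +Cre and +GFP libraries of the same number these deviations correlated over 11840 genes at r = -0.0172, 0.058 and 0.131 in *Rtel1* F/F and 0.552, 0.358 and -0.0998 in *Terf1* F/F cells. With the mutant +GFP control the difference turned for *Lsp1* -0.20, *Ddx21* -0.065, *Plk2* -0.32, *Ccnd1* -0.14, *Rrm2* -0.0093, *Aurka* -0.00042, *Fancb* -0.10, *Atr* -0.0014, *Ccl5* 0.38, *Ptgs2* -0.86, *Lama4* 0.46, *Mmp9* 1.99, *Id3* 0.05, *Dkk2* -1.93, *Igfbp2* 3.25, *Igf2* 1.84, *Igf1* 0.48, *Enpep* 0.84, *Anpep* 0.19, *Fhl1* -0.69, *Fgf21* 0.83, *Atf5* 0.0051, *Gstm1* 0.12, *Gstm2* 0.46, *Eno2* 0.084, *Rps27a* -0.083, *Pcdhb19* 0.65, *Pcdhb20* 0.72, *Gjb2* -0.78, *S100a4* -0.32, *Egfl7* 0.48, *Krt19* -1.07, *Nanog* 0.72 and *Isg15* 0.35, and the effect in *Rtel1* F/F cells for *Perp* -0.21, *Ly6a* -0.44, *Slc40a1* 0.047 and *Tgfbi* 0.50. Called differences that are not among the 38 turned results below turned too with this control, for *Eda2r* -0.32, *Ccne1* -0.25, *Cd80* -0.35, *Ddit4l* -0.96, *Slc40a1* 1.03 and *Tgfbi* 1.09. Without single libraries the difference turned for *Fabp4* (0.11, from -0.29 without *Rtel1* F/F +GFP replicate 1 to 0.47 without replicate 3) and *Nanog* (-0.33, from 0.15 without *Terf1* F/F +Cre replicate 1 to -0.58 without replicate 2). Calls were lost on leaving out 1 library (number of such libraries in parentheses) for *Tmem254b* (10), *Oas2* (7), *Oas3* (1), *Slc40a1* (1), *Tgfbi* (1), *Ccnd1* (9), *Dut* (6), *Aurka* (1), *Ccnb1* (1), *Fancb* (8), *Atr* (5), *Gbp9* (7), *Fosb* (9), *Gstm2* (9), *Fdps* (5), *Eno2* (2), *Uqcrb* (9), *Rpl26* (8), *Sdk1* (4) and *Thy1* (12). Of 172 results of named genes, the mutant +GFP control turned 38 and ended the call of 94, and the fold change threshold ended 44. Calls were also lost without a filter on low counts, with the 12 libraries alone or with the block for *Tmem254b*, *Oas2*, *Slc40a1*, *Tgfbi*, *Ccnd1*, *Atr*, *Gbp9*, *Uqcrb*, *Rpl26* and *Thy1*. At an adjusted p of at most 0.05 (edgeR, Benjamini-Hochberg) 12 Hox genes, 12 ATF4 targets and 14 NRF2 targets differed. With the block, under which 5541 of 13719 genes differed, 17 replication, 13 CDK inhibitor and 32 respiratory chain genes did, as did 14 ATF4 and 14 NRF2 targets. The cause was not tested.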
